A study of Homo sapiens with 36 samples.

Results

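The microRNAs (miRNAs) of differentiated Caco-2 cells (dCaco-2) were compared after exposure to CoCl2 or to the oxyquinoline derivative (OD) 4896-3212. Members were all miRNAs counted in the 3 control, 3 CoCl2 and 3 OD small RNA libraries of these cells, which are 9 of the 36 samples of the series. Of 2656 miRNAs listed, 1621 had at least 1 read in these 9 libraries, 1035 had none, and 534 passed the filter on low counts and were tested. Caco-2 is an established human colon adenocarcinoma line that takes on features of the small intestinal epithelium after confluence, and here the cells were differentiated for 21 days. CoCl2 was given at 300.0 µM and OD at 5.0 µM, both for 24 h. Control and OD medium held 0.5 µl of DMSO per ml. The labels call the control untreated, and the sources used here differ on whether the CoCl2 medium also held DMSO, so that a solvent difference between CoCl2 and the other groups cannot be told apart from the agent. The 9 matching mRNA libraries of the same conditions served as a second readout, and whether RNA for both came from the same cultures is not stated.

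Hypoxia-inducible factors (HIFs) are transcription factors whose alpha subunits are hydroxylated by oxygen-dependent prolyl hydroxylases and then degraded. CoCl2 and inhibitors of these hydroxylases stabilise the alpha subunits at normal oxygen and are used as chemical models of hypoxia. A miRNA is cut from a hairpin whose 5p and 3p arms can each yield a mature strand, and bases 2 to 8 of that strand, the seed, direct most target recognition. miR-210-3p is the best known miRNA product of HIF signalling.

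The sequences of the miRNAs on which the comparisons turned are given here so that arms and seed families can be read from them. They are mature strands from RefSeq (GRCh38.p14), which held a sequence for 474 of the 534 tested miRNAs and for 31 of the 37 that passed a false discovery rate (FDR) of 0.05 in any comparison. Each is written 5′ to 3′ with the seed in capitals. The first set holds miRNAs that passed in at least 1 comparison and are described one by one below.
miR-210-3p: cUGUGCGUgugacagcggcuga
miR-12135: uAAAGGUUuguuuguaaa
miR-1257: aGUGAAUGauggguucugacc
miR-27b-5p: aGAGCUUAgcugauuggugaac
miR-1303: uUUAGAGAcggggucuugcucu
miR-7-5p: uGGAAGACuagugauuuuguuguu
miR-146b-3p: gCCCUGUGgacucaguucuggu
miR-7974: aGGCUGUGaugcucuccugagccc
miR-6511b-3p: cCUCACCAccccuucugccugca
miR-32-5p: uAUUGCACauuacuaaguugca
The second set holds a passing miRNA beside others that carry the same seed, grouped by seed.
miR-148a-3p: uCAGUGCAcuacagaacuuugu
miR-148b-3p: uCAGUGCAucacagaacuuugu
miR-152-3p: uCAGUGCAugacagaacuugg
miR-200a-5p: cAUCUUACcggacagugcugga
miR-200b-5p: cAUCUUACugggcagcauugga
miR-365a-5p: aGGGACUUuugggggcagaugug
miR-365b-5p: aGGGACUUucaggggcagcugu
miR-1260a: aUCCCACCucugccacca
miR-1260b: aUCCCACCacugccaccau
The third set holds the miRNAs typical of intestinal epithelium, of which miR-192-5p and miR-215-5p share a seed.
miR-192-5p: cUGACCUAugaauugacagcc
miR-215-5p: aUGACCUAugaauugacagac
miR-194-5p: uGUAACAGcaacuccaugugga

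Control library 3 held 763531 miRNA reads, whereas the other libraries held 3779390 to 7469880. It detected 659 miRNAs against 970 to 1142 elsewhere, and a count of 3 in it stood for 4.01 CPM (counts scaled to the library total and by TMM) against 0.404 to 0.798 CPM in the others. This library stood apart on the first principal component of log2 CPM (47.6% of the variance), and control library 1 stood apart on the second (17.8%) and had the lowest quality weight, 0.226 against 0.920 to 1.72. Results that rested on either library are given with and without it. All levels below are CPM after trimmed mean of M values (TMM) scaling, and p-values measure the spread between libraries described as 3 biological replicates per group.

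miRNAs typical of intestinal epithelium were among the most abundant in every group. miR-192-5p averaged 250260 CPM and took 23.7 to 26.7% of the reads of each library. miR-21-5p followed at 82417 CPM, miR-194-5p at 77832 CPM, miR-148a-3p at 61076 CPM and miR-372-3p, a miRNA of embryonic and germ cells, at 52864 CPM. The 20 most abundant miRNAs held 81.9 to 83.6% of the reads in every library. Of the 10 most abundant, miR-148a-3p was the only one that passed the FDR threshold in any comparison. In the mRNA libraries the epithelial genes VIL1 (426 to 884 CPM) and EPCAM (751 to 1461 CPM) and the intestinal factor CDX2 (146 to 332 CPM) were expressed, and so were the enterocyte genes SI (sucrase-isomaltase, 94.2 to 319 CPM), APOA4 (9.90 to 72.2 CPM) and ALPI (intestinal alkaline phosphatase, 15.4 to 24.3 CPM) at lower levels. The enterocyte fatty acid binding protein FABP2 was the lowest of these markers (0.218 to 1.81 CPM). The hepatocyte marker miR-122-5p (1542 to 2139 CPM) and ALB mRNA (1484 to 2281 CPM) were also present in every group.

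Changes of the miRNA profile were small. At an FDR under 0.05 and an absolute log2 fold change over 1, CoCl2 called 5 miRNAs (0.936% of those tested), 1 higher and 4 lower. OD called 2 (0.375%), both higher, and CoCl2 differed from OD in 2 (0.375%), both lower after CoCl2. By FDR alone, 9 miRNAs rose (1.69%) and 26 fell (4.87%) after CoCl2, 3 rose (0.562%) and 8 fell (1.5%) after OD, and 1 was higher (0.187%) and 2 were lower (0.375%) after CoCl2 than after OD. At an unadjusted p under 0.05 these numbers were 114, 90 and 54. The called numbers moved with single libraries. Without control library 1 they were 7 for CoCl2 and 3 for OD. Without control library 2 they were 19 and 12, and without control library 3 they were 9 and 3. Without CoCl2 library 1 or 2 CoCl2 called 2, and without OD library 1 OD called 1. Without CoCl2 library 2 or OD library 3 the agents differed in 1. Without regard to sign, the median log2 fold change of a tested miRNA was 0.195 for CoCl2, 0.163 for OD and 0.116 between the agents, near the median standard errors of 0.170, 0.168 and 0.160. For CoCl2, 457 miRNAs (85.6%) lay within 0.5 of 0 on the log2 scale, and for OD 468 (87.6%) did.

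Precision depended on abundance. The median standard error of the CoCl2 log2 fold change was 0.302 for the 216 miRNAs under 10 CPM and 0.0828 for the 69 at 1000 CPM or more. After CoCl2, 8 of the miRNAs under 10 CPM and 4 of those at 1000 CPM or more passed the FDR threshold. Only miR-12135, in OD against control and in CoCl2 against OD, met the full rule for naming, which also asked for a mean count of 50. The other passing miRNAs described here were chosen after their values were seen unless they belong to a list given below. In every passing comparison the libraries of both groups did not overlap in CPM. Passing rests on these same values, so the lack of overlap here and below adds no separate support. Its share over all tested miRNAs was not counted.

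**Figure D1:**
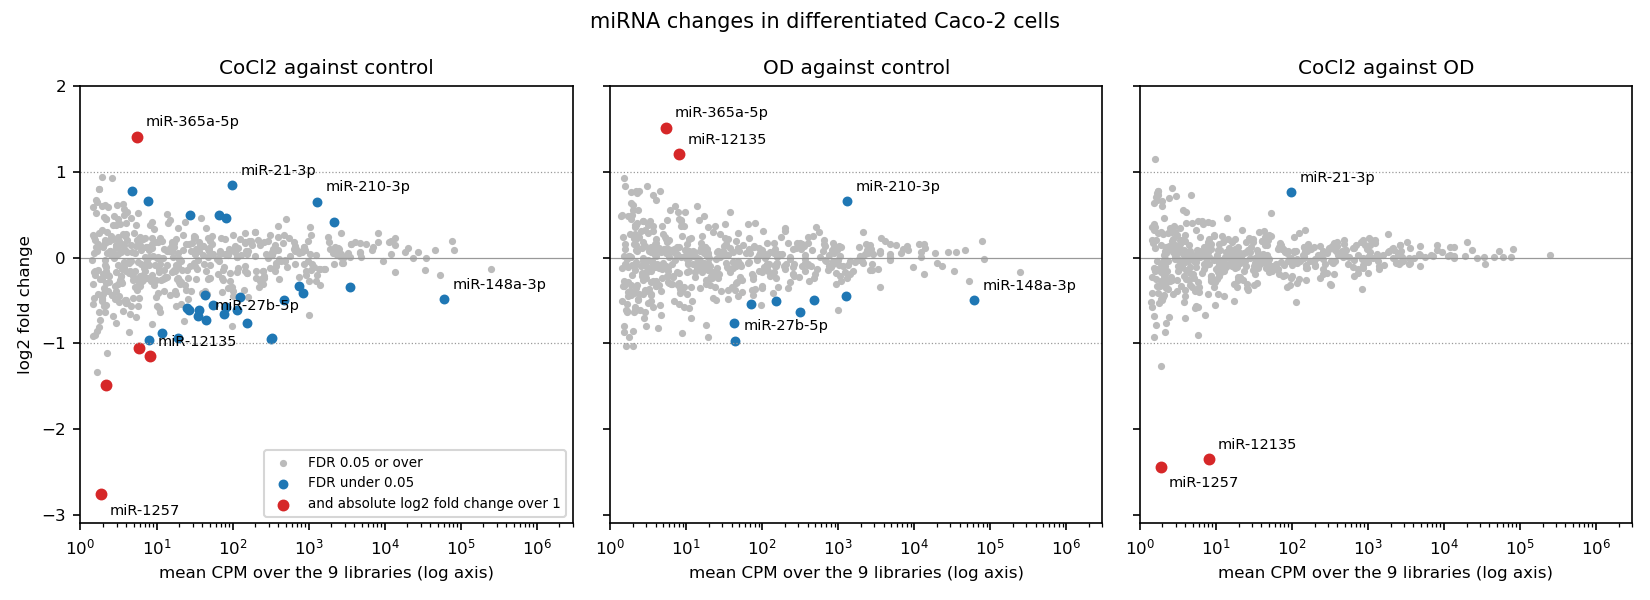
Log2 fold change of each tested miRNA (y axis) against its mean level in CPM (log axis) for CoCl2 against control, OD against control and CoCl2 against OD, with miRNAs under an FDR of 0.05 marked. Most of the 534 points lie close to 0, and the widest scatter is at the lowest levels.

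miR-210-3p rose after both agents. Its hairpin lies at chr11:568089-568198 on the minus strand, in an intron of the lncRNA gene MIR210HG. The control libraries held 888, 935 and 1030.2 CPM, the CoCl2 libraries 1479.5, 1574 and 1411 CPM, and the OD libraries 1361, 1509.9 and 1616 CPM. Every treated library was above every control library, and the treated groups overlapped each other. The log2 fold change was 0.65 ± 0.09 (SE, n = 3 per group) for CoCl2 (edgeR quasi-likelihood test, FDR = 0.00145) and 0.66 ± 0.09 for OD (FDR = 0.000518), each passing under every alternative analysis. Between the agents it was −0.01, with a 95% interval of −0.19 to 0.18. The other arm, miR-210-5p, averaged 13.8 CPM, and its log2 fold changes of 0.51 and 0.60 did not pass (FDR = 0.38 and 0.37). That result rested on control library 1. Without this library, and also with voom and sample weights, miR-210-5p was called for both agents.

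miR-12135 moved in opposite directions. It lies at chr15:73299910-73299979 on the plus strand, in an intron of NEO1, which encodes the netrin receptor neogenin. The control libraries held 6.6, 6.89 and 5.34 CPM, the CoCl2 libraries 2.13, 3.1 and 3.38 CPM, and the OD libraries 14.7, 15.4 and 15.8 CPM. The groups did not overlap, with CoCl2 lowest and OD highest. It fell 2.22-fold after CoCl2 (log2 −1.15 ± 0.21, FDR = 0.00471) and rose 2.30-fold after OD (log2 1.20 ± 0.16, FDR = 0.000518). The difference between the agents was −2.35 ± 0.17 on the log2 scale (FDR = 6.09e-07), a 5.10-fold lower level after CoCl2, and all of these passed under every alternative. The level was low: the groups held 91, 55 and 275 reads in all, and control library 3 held 4 of them. From the pooled reads the ratio was 0.45 for CoCl2 (95% interval 0.316 to 0.636) and 2.30 for OD (1.81 to 2.94), intervals that cover counting error only.

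miR-1257 was lower after CoCl2 than in either other group. Its mature strand lies at chr20:61953621-61953641 on the minus strand, in an exon of TAF4, a subunit of the general transcription factor TFIID. The control libraries held 13, 21 and 3 reads, the CoCl2 libraries 2, 2 and 3, and the OD libraries 10, 12 and 17. Scaled, these were 2.26 to 4.01, 0.269 to 0.532 and 1.73 to 2.44 CPM, and the CoCl2 libraries were below all others. Counts of 2 or 3 are at or under the floor of 3, so the size of the change is best read from the pooled reads, 7 against 37, a ratio of 0.141 (0.053 to 0.32), and 7 against 39, a ratio of 0.176 (0.0664 to 0.398). Both comparisons passed (FDR = 0.00177 and 0.00853). The call against control held under every alternative that gave a value, but that against OD was lost with DESeq2 (FDR = 0.44), without CoCl2 library 2 (FDR = 0.14) and without OD library 3 (FDR = 0.053). OD against control did not (log2 −0.32, FDR = 0.64).

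miR-21-3p rose after CoCl2. It is the less abundant arm of the miR-21 hairpin (chr17:59841266-59841337, plus strand, in an exon of VMP1), whose 5p arm is a widely studied miRNA of tumours and inflammation. Control libraries held 73, 70.1 and 93.5 CPM, CoCl2 libraries 135, 138 and 136 CPM, and OD libraries 68.3, 86.5 and 86.7 CPM. The CoCl2 libraries lay above all others, and the OD libraries overlapped the controls. The log2 fold change was 0.85 ± 0.13 for CoCl2 (FDR = 0.00177), 0.09 for OD (FDR = 0.77) and 0.76 ± 0.12 for CoCl2 against OD (FDR = 0.00425), and the CoCl2 calls against control and against OD held under every alternative.

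**Figure D2:**
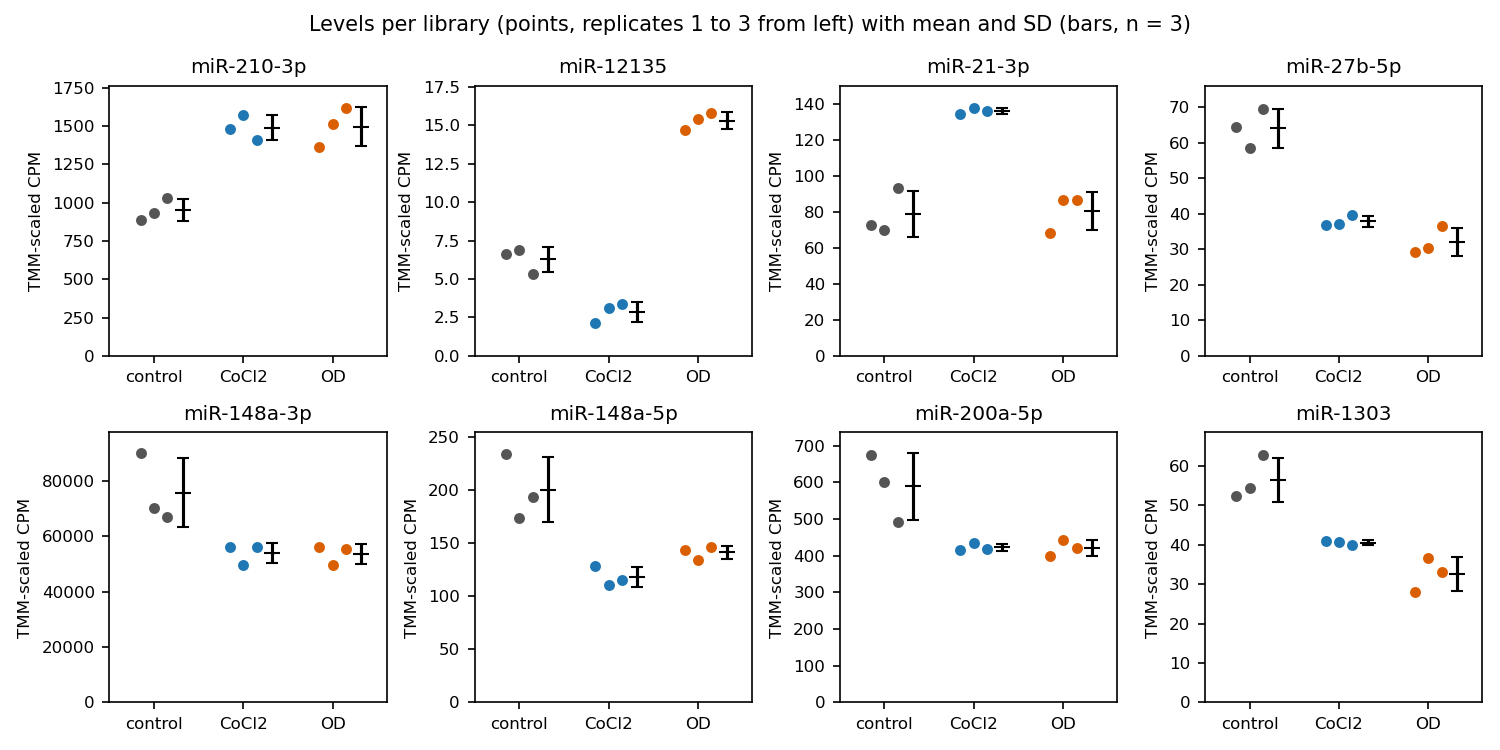
Level of selected miRNAs in CPM (y axes, scaled per panel) in each of the 3 control, 3 CoCl2 and 3 OD libraries (points) with the mean and SD. miR-210-3p is higher in both treated groups, miR-12135 is lowest after CoCl2 and highest after OD, and miR-21-3p is higher after CoCl2.

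Both agents were compared with the same 3 control libraries, so their values below share that reference. miR-27b-5p, from the MIR27B hairpin at chr9:95085445-95085541 in an intron of AOPEP, held 64.5, 58.5 and 69.5 CPM in control, 37, 37 and 39.7 CPM after CoCl2 and 29.2, 30.3 and 36.6 CPM after OD. Each treated library was below each control library. The log2 fold change was −0.73 ± 0.12 for CoCl2 (FDR = 0.00265) and −0.97 ± 0.12 for OD (FDR = 0.000518), and both passed under every alternative. The agents differed by 0.24, with a 95% interval of −0.02 to 0.50.

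miR-148a-3p, a regulator of the LDL receptor and of DNA methyltransferase 1, was the one miRNA among the 10 most abundant that passed. Its hairpin lies at chr7:25949919-25949986 on the minus strand, in an intron of an unnamed lncRNA gene. The control libraries held 89873, 69997 and 67030.2 CPM, the CoCl2 libraries 55913, 49768 and 56221 CPM, and the OD libraries 56021, 49504 and 55360.4 CPM. All controls were above all treated libraries, and control library 1 was the highest. The log2 fold change was −0.49 ± 0.10 for CoCl2 (FDR = 0.00966) and −0.50 ± 0.10 for OD (FDR = 0.0162), and between the agents it was 0.01 (−0.20 to 0.22). The CoCl2 call was lost without CoCl2 library 2 (FDR = 0.091), and the OD call without any 1 OD library (FDR = 0.074 to 0.12) and with only control and OD fitted (FDR = 0.098). The other arm, miR-148a-5p, held 234, 174 and 194 CPM in control, 129, 111 and 115 CPM after CoCl2 and 144, 134 and 146 CPM after OD, again without overlap of control and treated libraries. It fell by 0.77 on the log2 scale after CoCl2 (FDR = 0.00177) and by 0.51 after OD (FDR = 0.0387). The former passed under every alternative, and the latter was lost under 6 of 14, among them without any 1 OD library (FDR = 0.12 to 0.19).

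miR-200a-5p comes from the cluster of miR-200b, miR-200a and miR-429, whose 3p arms repress the epithelial-mesenchymal transition factors ZEB1 and ZEB2. Its mature strand lies at chr1:1167878-1167899 on the plus strand. It held 674, 601 and 493 CPM in control, 416, 434 and 419 CPM after CoCl2 and 399.6, 443 and 420.0 CPM after OD. No treated library reached the lowest control, and the log2 fold changes were −0.49 (FDR = 0.0132) and −0.50 (FDR = 0.0173). Without any 1 CoCl2 library the CoCl2 call was lost (FDR = 0.062 to 0.064), and the OD call was lost without OD library 1 (FDR = 0.15) or 3 (FDR = 0.14) and with only control and OD fitted (FDR = 0.15). The agents differed by 0.01, with a 95% interval of −0.21 to 0.23.

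miR-1303, at chr5:154685827-154685848 in an intron of LARP1, held 52.3, 54.3 and 62.8 CPM in control, 41, 40.7 and 39.9 CPM after CoCl2 and 28, 36.6 and 33.1 CPM after OD. The 3 groups did not overlap. It fell by 0.44 after CoCl2 (FDR = 0.0475) and by 0.76 after OD (FDR = 0.00358). The CoCl2 call held under 3 of 14 alternatives and was lost without control library 2 (FDR = 0.056) or 3 (FDR = 0.072) and without any 1 CoCl2 library (FDR = 0.13 to 0.18), whereas the OD call held under all 14. The difference between the agents, 0.32 (0.05 to 0.58), did not pass when adjusted over all miRNAs (FDR = 0.42).

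miR-1260a and miR-1260b differ at 1 of 18 aligned positions, so that reads may be split between them and their separate values are uncertain. MIR1260A (chr14:77266218-77266290) lies antisense to an exon of NGB and MIR1260B (chr11:96341438-96341526) antisense to an exon of MAML2. miR-1260b held 561, 386 and 381 CPM in control, 209, 243 and 239.6 CPM after CoCl2 and 246, 350.0 and 264 CPM after OD, with control library 1 highest and no overlap of control with treated libraries. It fell by 0.95 after CoCl2 (FDR = 0.00234) and by 0.64 after OD (FDR = 0.0443), the latter lost under 6 of 14 alternatives, among them the replicate block (FDR = 0.12) and without OD library 1 (FDR = 0.27) or 3 (FDR = 0.32). miR-1260a fell by 0.93 after CoCl2 (FDR = 0.00265), and its OD value of −0.62 missed the threshold (FDR = 0.062). CoCl2 against OD passed for neither, at −0.32 for miR-1260a and −0.31 for miR-1260b (both FDR = 0.50).

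miR-365a-5p, from a hairpin at chr16:14309285-14309371 in an intron of MIR193BHG, rose after both agents at a low level. The control libraries held 17, 19 and 0 reads (2.95, 2.67 and 0 CPM), the CoCl2 libraries 32, 56 and 39 (8.51, 7.54 and 5.49 CPM), and the OD libraries 56, 30 and 49 (9.68, 6.09 and 6.79 CPM). The 0 reads of the shallow control library 3 allow up to 4.01 CPM, and all treated libraries were above that. The pooled ratio was 2.63 for CoCl2 (1.80 to 3.92) and 2.85 for OD (1.96 to 4.24), and both comparisons passed (FDR = 0.0137 and 0.0173). The CoCl2 call was lost without CoCl2 library 1 (FDR = 0.064) or 2 (FDR = 0.091), and the OD call without OD library 1 (FDR = 0.13) or 3 (FDR = 0.059) and with only control and OD fitted (FDR = 0.057). The agents differed by −0.11 on the log2 scale (−0.61 to 0.40). miR-365b-5p has the same seed and differs at 3 of 22 aligned positions. The summed level of both was 6.95, 5.91 and 2.67 CPM in control. It was 10.1, 9.56 and 8.17 CPM after CoCl2 and 13.1, 8.33 and 9.01 CPM after OD. Control and treated libraries did not overlap for the sum, but control library 3 rests on 2 reads, under the floor of 3. Alone, miR-365b-5p had log2 fold changes of −0.69 (CoCl2) and −0.42 (OD), and neither passed (FDR = 0.20 and 0.49).

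The remaining miRNAs called after CoCl2 were miR-7974 and miR-6511b-3p, both lower and both under 10 CPM. miR-7974, in an intron of ZNF653 (chr19:11495544-11495622), held 7.64, 6.89 and 8.02 CPM in control, 2.93, 2.96 and 4.37 CPM after CoCl2 and 7.95, 5.89 and 5.82 CPM after OD. The CoCl2 libraries were below all others, with a log2 fold change of −1.06 ± 0.23 (FDR = 0.0137). The call was lost with DESeq2 (FDR = 0.11) and without CoCl2 library 1 (FDR = 0.062) or 2 (FDR = 0.091). For miR-7974, CoCl2 against OD did not pass (log2 −0.90, FDR = 0.099). miR-6511b-3p held 18, 21 and 3 reads in control, 3, 7 and 10 after CoCl2 and 10, 12 and 14 after OD. Its pooled ratio for CoCl2 was 0.354 (0.197 to 0.617, FDR = 0.0137). This call was also lost with DESeq2 (FDR = 0.15) and without CoCl2 library 1 (FDR = 0.064) or 2 (FDR = 0.091). For miR-6511b-3p, too, CoCl2 against OD did not pass (log2 −0.87, FDR = 0.42). It differs from miR-6511a-3p at 1 of 22 aligned positions.

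Both arms of the miR-32 hairpin, which lies at chr9:109046229-109046298 in an intron of TMEM245, fell after CoCl2. miR-32-5p held 942, 998 and 866 CPM in control, 692, 756 and 673 CPM after CoCl2 and 956, 973 and 814 CPM after OD. The CoCl2 libraries were below all others and the OD libraries overlapped the controls, and the CoCl2 log2 fold change was −0.41 ± 0.09 (FDR = 0.0142). miR-32-3p fell by 0.68 after CoCl2 (FDR = 0.0142), and its OD value of −0.38 did not pass (FDR = 0.24). Without any 1 CoCl2 library both CoCl2 calls were lost, at an FDR of 0.056 to 0.11 for miR-32-5p and 0.053 to 0.094 for miR-32-3p. CoCl2 against OD passed for neither arm, at −0.37 for miR-32-5p (FDR = 0.099) and −0.29 for miR-32-3p (FDR = 0.50). CoCl2 also raised miR-126-5p, from an intron of the endothelial gene EGFL7 (chr9:136670602-136670686), which held 50, 55.1 and 54.8 CPM in control, 77.6, 77.1 and 69 CPM after CoCl2 and 71.4, 68.5 and 68.2 CPM after OD. Every treated library was above every control library. The log2 fold change was 0.49 ± 0.11 for CoCl2 (FDR = 0.0137) and 0.39 for OD, which did not pass (FDR = 0.096). CoCl2 against OD gave 0.10 and did not pass (FDR = 0.87). The CoCl2 call was lost without CoCl2 library 1 (FDR = 0.093) or 2 (FDR = 0.091).

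The other miRNAs that rose after CoCl2 were miR-374b-5p, miR-424-3p, let-7f-2-3p, miR-628-5p and miR-199a-5p, by 0.41 to 0.78 on the log2 scale. Those that fell included miR-328-3p, miR-190a-5p, miR-504-5p, miR-141-5p, miR-151a-3p, miR-425-5p, miR-548o-3p, miR-4521 and miR-574-5p, with log2 fold changes of −0.66 to −0.33. Several of these calls rested on 1 control library. Without control library 3, miR-4521 (FDR = 0.069), miR-574-5p (0.051) and miR-628-5p (0.062) no longer passed. Without control library 1, miR-548am-3p (0.070), miR-29c-5p (0.33), miR-877-5p (0.31), miR-671-5p (0.086), miR-574-5p (0.14), miR-424-3p (0.094), miR-628-5p (0.11) and miR-199a-5p (0.068) no longer passed. For miR-29c-5p, control library 1 held 44.5 CPM, the other controls 19.4 and 17.4 CPM, and the CoCl2 libraries 14.8 to 16.2 CPM. Of the 35 miRNAs that passed, 27, 31 and 31 did so without control library 1, 2 or 3, but 10, 8 and 18 without CoCl2 library 1, 2 or 3, and 8 passed under every alternative. In all, 8 to 71 miRNAs passed with 1 library left out, the 8 without CoCl2 library 2 and the 71 without control library 2.

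After OD, miR-7-5p and miR-146b-3p fell in addition to those above. miR-7-5p, a miRNA of neuroendocrine cells that represses EGFR, held 1454, 1286 and 1672 CPM in control, 1174, 1132 and 1316 CPM after CoCl2 and 1145, 1048 and 1035 CPM after OD. OD libraries were below all controls, and the CoCl2 libraries overlapped both. The OD log2 fold change was −0.45 ± 0.10 (FDR = 0.0290), and the call was lost without control library 3 (FDR = 0.088) and without any 1 OD library (FDR = 0.076 to 0.25). miR-146b-3p, from a locus induced by NF-κB (chr10:102436512-102436584), held 81.8, 96.1 and 85.5 CPM in control and 52.7, 63.2 and 66 CPM after OD, without overlap, a log2 fold change of −0.54 ± 0.13 (FDR = 0.0394). The call was lost without control library 2 (FDR = 0.061) and without any 1 OD library (FDR = 0.085 to 0.24). Its CoCl2 value of −0.40 did not pass (FDR = 0.081), nor did that of −0.28 for miR-7-5p (FDR = 0.12). CoCl2 against OD passed for neither, at 0.17 for miR-7-5p (FDR = 0.59) and 0.14 for miR-146b-3p (FDR = 0.85). Of the 11 miRNAs that passed for OD, 11, 10 and 10 did so without control library 1, 2 or 3, but 4, 7 and 4 without OD library 1, 2 or 3, and 4 passed under every alternative. In all, 4 to 53 passed with 1 library left out, the 53 without control library 2, and 4 passed when only control and OD were fitted.

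For several hairpins the minor arm passed while the major arm did not. Both arms were tested for 128 hairpins, so minor arms made up 24.0% of the tested miRNAs. Minor arms were 11 of the 35 miRNAs that passed for CoCl2 (31.4%), as many as the 11 major arms of these hairpins. For OD they were 5 of 11 (45.5%), with 2 major arms. Both arms passed for 2 hairpins after CoCl2 and for 1 after OD, so major arms also passed alone. miR-27b-5p was 0.322 ± 0.0216% of the reads of its hairpin in control (mean ± SD, n = 3), 0.176 ± 0.0077% after CoCl2 and 0.168 ± 0.0129% after OD, and no treated library overlapped a control. miR-200a-5p was 4.67 ± 0.872%, 3.29 ± 0.046% and 3.34 ± 0.145%. The miR-126-5p share was higher in the treated groups, at 5.05 ± 0.745%, 7.79 ± 0.632% and 7.16 ± 0.483%, and that of miR-21-3p was 0.0974 ± 0.0175%, 0.159 ± 0.00607% and 0.1 ± 0.0127%. The miR-365a-5p share was 0.712 ± 0.707% in control, 2.83 ± 0.619% after CoCl2 and 3.09 ± 1.05% after OD. That control mean includes control library 3, with 0 of 167 reads and an exact binomial interval of 0 to 2.18%. The interval overlaps those of CoCl2 library 3 (1.51 to 2.89%), OD library 2 (1.48 to 3.11%) and OD library 3 (2.11 to 3.74%). Overlapping intervals do not test a difference, so the separation of control library 3 from these libraries is uncertain. The major arm, miR-365a-3p, is 1 of 2 tested miRNAs with its seed. How reads were divided between these is not given, so the share itself is uncertain.

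The hairpins given above were chosen because the minor arm passed and the major arm did not. Log2 fold changes nearer 0 for their major arms follow from that choice. They were 0.11 (CoCl2) and −0.07 (OD) for miR-27b-3p, 0.04 and 0.01 for miR-200a-3p, 0.08 and −0.02 for miR-21-5p, −0.20 and −0.17 for miR-126-3p, and −0.16 and −0.20 for miR-365a-3p, and none passed. The difference between the arms was not tested in a model, and with 3 against 3 libraries an exact permutation test of a share cannot give a two-sided p under 0.1. For miR-148a the minor arm share was 0.265 ± 0.0207% in control, 0.219 ± 0.0132% after CoCl2 and 0.264 ± 0.00725% after OD, so that both arms fell by a like amount after OD.

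**Figure D3:**
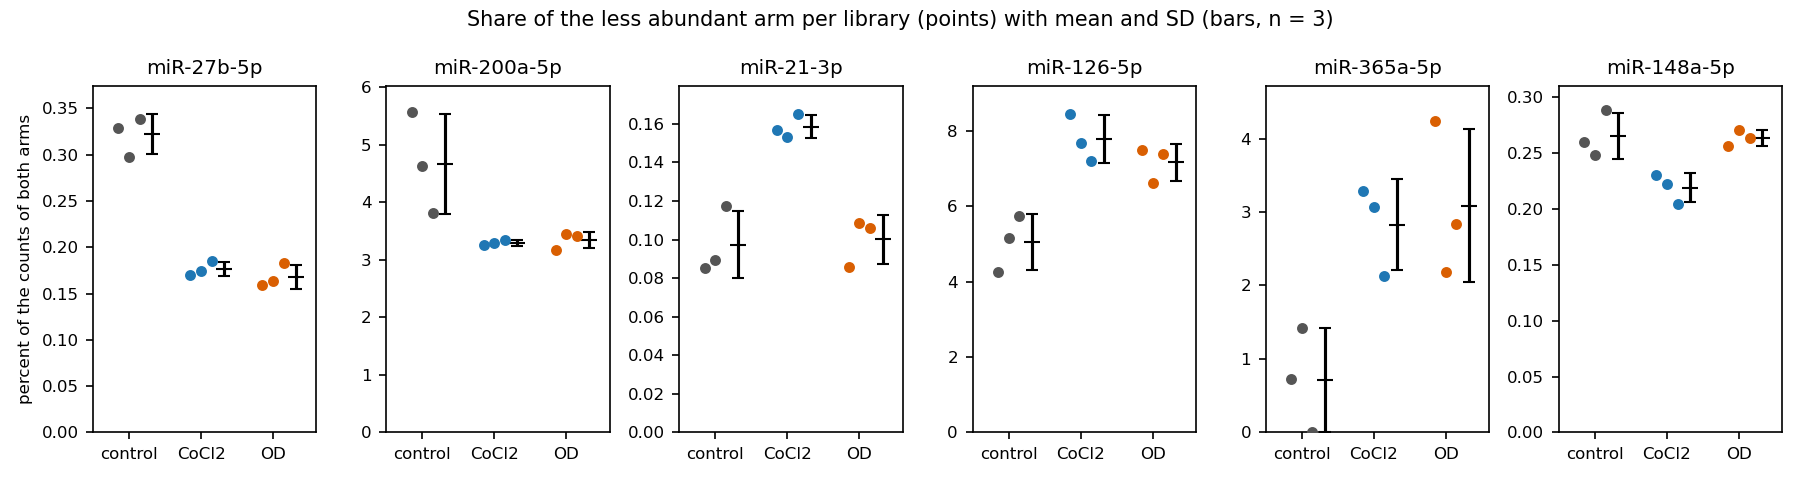
Share of the minor arm in the reads of its hairpin, in percent (y axes, scaled per panel), in each control, CoCl2 and OD library (points) with the mean and SD. The miR-27b-5p share is 0.322% in control and 0.176% and 0.168% after CoCl2 and OD, and the miR-126-5p share is higher in both treated groups.

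Most miRNAs with the same seed as a passing miRNA did not pass. miR-148b-3p and miR-152-3p share the seed of miR-148a-3p, and neither passed in any comparison. The seed of miR-32-5p is also that of miR-25-3p, miR-92a-3p, miR-92b-3p and miR-363-3p, and none of these passed. Neighbours on the same strand were searched for the 31 passing miRNAs with a RefSeq sequence, and not for the other passing ones. None of the tested miRNAs found from other hairpins within 10 kb passed. They were miR-200b and miR-429 beside miR-200a, miR-23b and miR-24 beside miR-27b, miR-29b beside miR-29c, miR-193b beside miR-365a, miR-421 beside miR-374b, and miR-450a, miR-450b and miR-503 beside miR-424.

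Members of lists of miRNAs by known role were counted beside the shares of all tested miRNAs that passed, 1.69% upwards and 4.87% downwards after CoCl2, against 0.562% upwards and 1.5% downwards after OD. With so few members per list, 1 or 2 of them can exceed these shares, and nothing particular to a list is read from its count. Of 21 tested members of the list of hypoxia-associated miRNAs, miR-210-3p and miR-199a-5p rose after CoCl2 and miR-210-3p alone rose after OD, and the median log2 fold change was 0.08 for both agents against −0.01 and −0.04 over all tested miRNAs. None of the 14 intestinal miRNAs tested passed for CoCl2, and 1, miR-7-5p, fell after OD. Of 9 arms of the miR-200 family, miR-200a-5p and miR-141-5p fell after CoCl2 and miR-200a-5p fell after OD. None of 9 let-7, 13 miR-17 family, 5 miR-15/16, 3 miR-29, 5 miR-30 or 6 miR-34 and p53-linked members passed in either comparison. In the list of 16 tested miRNAs of inflammation 1 rose after CoCl2, miR-21-3p. In that of sterol and lipid metabolism (9 tested) and that of the miR-23/27/24 clusters (10 tested), 1 member fell after each agent, miR-148a-3p and miR-27b-5p respectively.

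Among markers of other cell types, 1 miRNA passed. Of 3 tested fibroblast miRNAs miR-199a-5p rose after CoCl2, from 3.40 ± 0.67 CPM in control to 6.31 ± 0.35 CPM (SD, n = 3), miR-214-3p was at 0 in all 9 libraries, and COL1A1 and VIM mRNA were at 14.7 to 26.5 and 1.34 to 2.82 CPM. None of 5 tested blood cell miRNAs passed (median log2 fold change −0.53 for CoCl2 and −0.16 for OD), miR-223-3p held 1 read in all 9 libraries, and their summed level was 61.5 to 78.2 CPM in control, 52.7 to 59.6 CPM after CoCl2 and 54.1 to 67.4 CPM after OD. The muscle miRNAs, mostly miR-1-3p, summed to 2483 to 3079 CPM over the 9 libraries, and the neuronal miR-124-3p was not tested. The cells were a single cultured line, so these levels are not read as the presence of other cell types. In bulk RNA, fewer cells that express a miRNA and less of it per cell cannot be told apart.

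**Figure D4:**
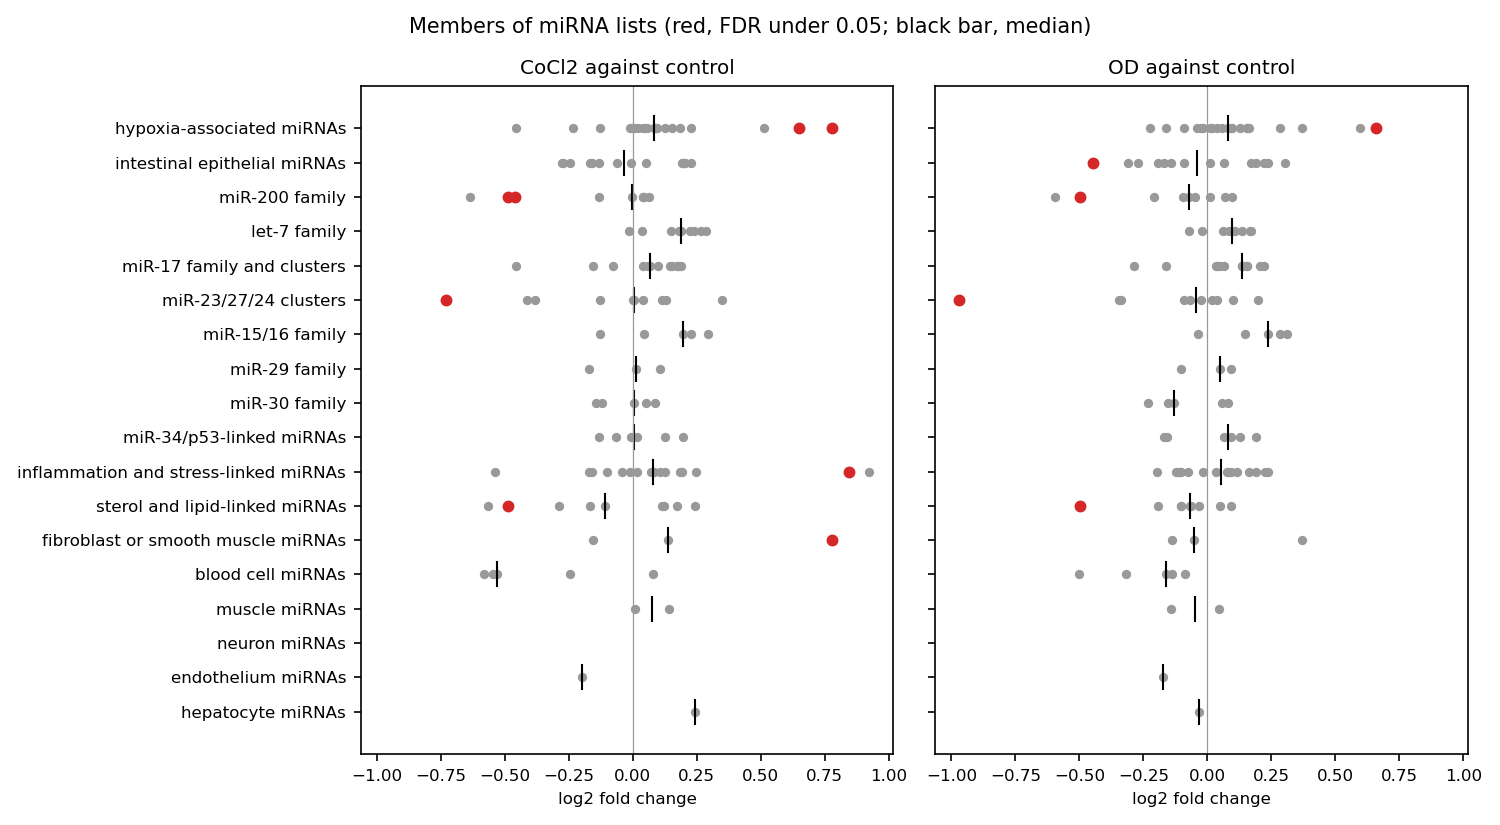
Log2 fold change of each tested member (points) of each list of miRNAs for CoCl2 and OD against control, with the median of each list. Most members lie near 0, and the medians of the hypoxia-associated list are 0.08 for both agents.

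mRNA of the genes that contain these hairpins gave a second readout. Over all 16034 genes tested, 23.4% were called for CoCl2, 11.7% for OD and 11.7% between the agents, at an FDR under 0.05 and an absolute log2 fold change over 1. Of 43 tested host genes, 5 were called for CoCl2, all higher, 4 for OD, 3 higher and 1 lower, and 3 between the agents, all higher after CoCl2. These were 11.6, 9.30 and 6.98% of the tested hosts, below the shares over all genes. The mRNA kit kept strand, but how strand was used in counting is not stated, so reads from antisense genes cannot be told apart.

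MIR210HG held 6.99, 8.38 and 6.3 CPM in control, 29, 27.5 and 24.6 CPM after CoCl2 and 17.1, 21 and 21.6 CPM after OD. Treated and control libraries did not overlap, nor did the agents. The log2 fold changes of 1.90 ± 0.13 and 1.46 ± 0.13 (FDR = 8.42e-12 and 3.35e-09) stand beside 0.65 and 0.66 for miR-210-3p. MIR193BHG held 0.407, 0.939 and 0.9 CPM in control, 4.5, 3.78 and 2.87 CPM after CoCl2 and 3.5, 1.92 and 1.48 CPM after OD, again with every treated library above the controls, and rose by 2.30 ± 0.35 and 1.64 ± 0.37 (FDR = 4.3e-06 and 0.00082).

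NEO1, the host of miR-12135, changed less than the miRNA. It held 36.7, 35 and 37.3 CPM in control, 29.8, 29.5 and 28.8 CPM after CoCl2 and 41.9, 40.1 and 36.5 CPM after OD. The CoCl2 libraries were lowest, and the OD libraries overlapped the controls. It fell by 0.31 after CoCl2 (FDR = 0.00462), its OD value of 0.12 did not pass (FDR = 0.26), and CoCl2 was lower than OD by 0.43 (log2 −0.43, FDR = 0.000333).

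TMEM245, the host of miR-32, held 252, 230 and 239 CPM in control, 142, 165 and 152 CPM after CoCl2 and 250, 283 and 254 CPM after OD, and fell by 0.65 after CoCl2 (FDR = 8.2e-08) while the OD libraries overlapped the controls. VMP1, which overlaps the miR-21 hairpin, held 188, 191 and 196 CPM in control, 354, 373 and 390 CPM after CoCl2 and 238, 207 and 186 CPM after OD. It rose by 0.96 after CoCl2 and was 0.82 higher than after OD (FDR = 8.45e-09), and OD overlapped the controls. AOPEP, the host of miR-27b, fell by 0.34 and 0.51 after CoCl2 and OD.

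In other loci the host and the miRNA did not move alike. FAM114A1 rose by 1.19 after CoCl2 while its miR-574-5p fell by 0.58, and CHPF2 rose by 0.91 while miR-671-5p fell by 0.61. The miR-574-5p call held under 4 of 14 alternatives and that of miR-671-5p under 6 of 14. Neither call held without control library 1 (FDR = 0.14 and 0.086). MIR22HG rose by 2.03 after CoCl2 and MIR34AHG by 1.34, whereas miR-22-3p (0.02) and miR-34a-5p (−0.07) did not pass. MIR17HG fell by 1.20 after OD, and no member of its cluster passed. MIR194-2HG, the host of miR-192 and miR-194-2, fell by 0.56 and 0.58, and neither miR-192-5p nor miR-194-5p passed. Of 21 pairs of a miRNA that passed for CoCl2 and a tested host, 11 had the same sign, 8 of them with a host that also passed, and 6 had opposite signs with a host that passed. Of 6 such pairs for OD, 4 had the same sign. Of all 43 tested hosts, 27 passed by FDR alone for CoCl2 and 24 for OD, so these counts are not read as agreement. Both miR-32 arms are paired with TMEM245, so the CoCl2 pairs are not all independent.

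**Figure D5:**
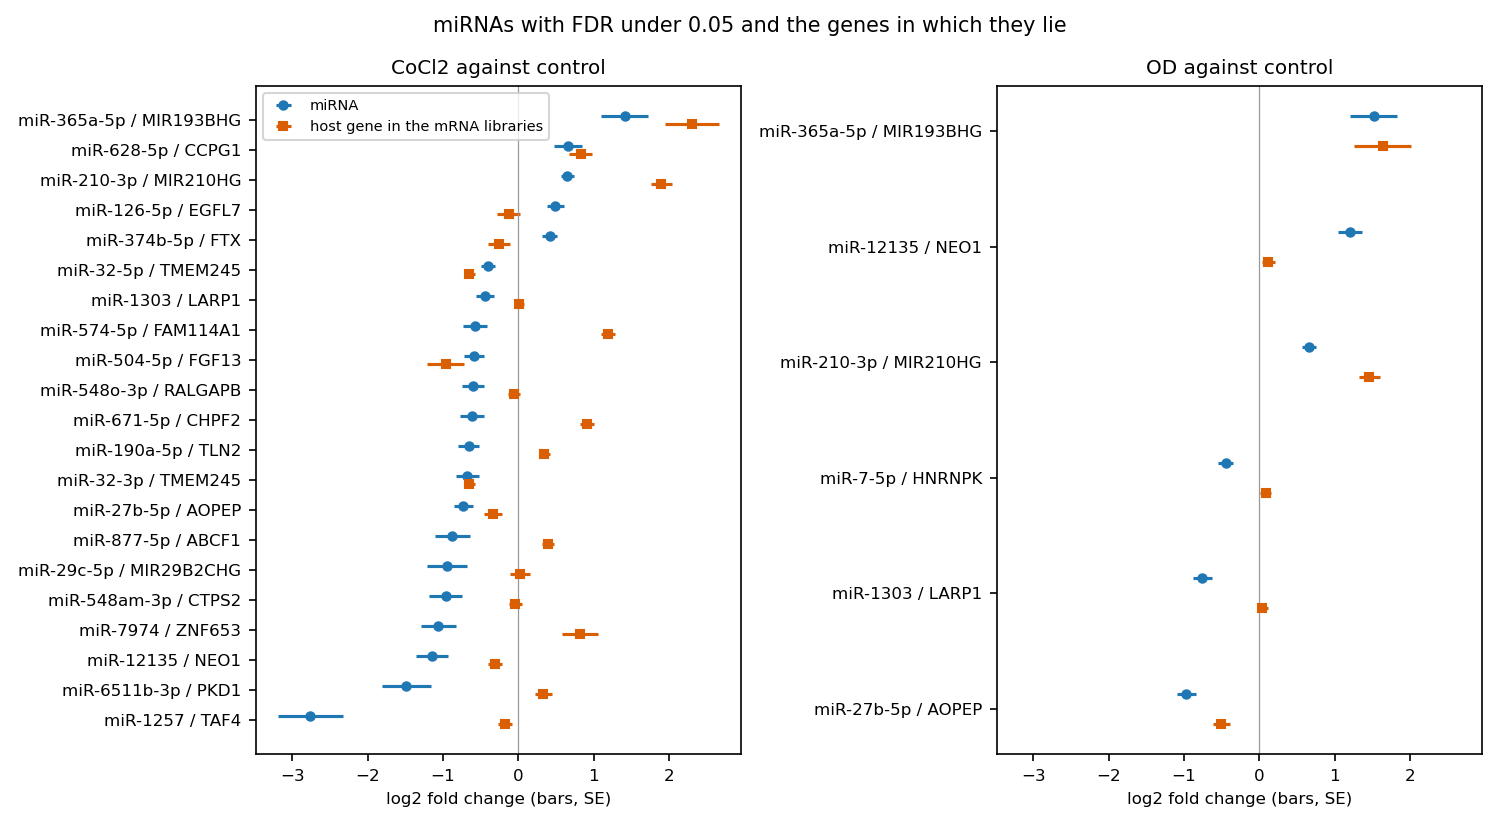
Log2 fold change (x axis, bars SE) of each miRNA with an FDR under 0.05 (circles) and of its tested host gene in the mRNA libraries (squares), 1 pair per line, for CoCl2 and OD against control. miR-210-3p lies at 0.65 beside 1.90 for MIR210HG after CoCl2, and miR-574-5p at −0.58 beside 1.19 for FAM114A1.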

How the data were processed

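The values used were whole-number read counts per miRNA and per gene, deposited by the authors without normalization. The submitters' processing notes name FastQC 0.11.9, cutadapt 2.10, STAR 2.7.5b, Bowtie 1.1.1, edgeR 3.30.3 and GRCh38.p13. Which aligner served the miRNAs and which miRNA annotation was used is not given in the sources used here. Small RNA libraries (NEBNext kit) were read as 50 nt single ends. The deposited log2 table of miRNAs equals the log2 of TMM-scaled CPM plus a pseudocount of 1, and served only as an alternative. The log2 table of mRNA was not used. There were 0 columns without a sample.

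Counts of the 9 miRNA libraries were filtered with filterByExpr, scaled by TMM and fitted by group in 1 model with edgeR 4.0.16 in R 4.3.3. Contrasts were tested by the two-sided quasi-likelihood test with Benjamini-Hochberg adjustment over 534 miRNAs. The 9 mRNA libraries, with 13091650 to 20966763 reads, were treated alike over 16034 genes. A call needed an FDR under 0.05 and an absolute log2 fold change over 1. Named miRNAs were, by rule, the 10 highest and 10 lowest called with a mean count of 50 and no overlap, list members, the 10 most abundant, and other arms, seed mates and neighbours within 10 kb, with their host genes. Intervals are 95%; exact binomial intervals of read ratios and the floor of 3 counts cover counting error only. Alternatives used DESeq2 1.42.0, limma 3.58.1, other scalings, filters and sample sets. Scripts were tested on simulated data with 200 changed features. Members and lists were chosen with earlier results of these data known.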

Additional observations from a re-analysis of the deposited data

How the results depend on the processing

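The number of miRNAs called for CoCl2 was 5, and it was 3 with DESeq2, 8 with voom and sample weights, 35 without the limit on the fold change, and 2 to 19 when 1 library was left out, with 19 without control library 2. limma-trend on the deposited log2 values called 0, with 95 of its 430 miRNAs at an unadjusted p under 0.05 and 22 under an FDR of 0.05. For OD the number was 2, and it was 1 with limma-trend or with only the groups compared, 11 without the fold limit, and 1 to 12 with 1 library left out, the 12 without control library 2. For CoCl2 against OD it was 2, and 1 with DESeq2 or limma-trend, and 1 to 2 with 1 library left out. By FDR alone OD gave 3 higher and 8 lower miRNAs with TMM and 6 higher and 4 lower with library size only. The numbers of called host genes stayed within 1.5 times under the alternatives run. The cause of these differences was not tested, apart from the fold limit, which by its construction removes calls.

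With the replicate number as a block, 5, 3 and 2 miRNAs were called for CoCl2, OD and CoCl2 against OD. Correlations of same-numbered libraries ran from −0.18 to 0.10, so the numbers were not taken to pair the libraries.

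Of 973 values of named miRNAs recomputed, 743 kept direction and side of the threshold, 185 kept direction and no longer passed, 11 passed newly and 34 changed sign. None of the values that changed sign had passed. For OD, miR-21-5p gave 0.000658 with RLE scaling, 0.0550 with library size only, 0.00429 with DESeq2, 0.0164 with voom, 0.00958 with only the groups compared and −0.0295 to 0.0242 with 1 library left out. miR-200a-3p gave −0.0149 with voom and −0.0296 to 0.0576 with 1 library left out, and miR-27b-3p gave 0.00359 with library size only. miR-365a-3p gave 0.207 (CoCl2) and 0.159 (OD) with voom, and −0.404 to 0.309 and −0.430 to 0.276 with 1 library left out, its highest values without control library 1, and miR-200a-3p (CoCl2) ran from −0.00243 to 0.0752. Between the agents, miR-210-3p gave 0.000328 (RLE), 0.00114 (DESeq2), 0.00424 (voom) and −0.0652 to 0.0342 with 1 library left out. miR-148a-3p gave −0.0265 (library size only), −0.000586 (limma-trend), −0.000179 (voom) and −0.0450 to 0.0658. miR-200a-5p gave −0.0265 with library size only and −0.0215 to 0.0476 with 1 library left out, and miR-365a-5p −0.216 to 0.114.

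Depth limits the low miRNAs: control library 3 could not resolve levels under 4.01 CPM. The 95% interval of a log2 fold change reached, in the median, 0.363 to either side for CoCl2, 0.359 for OD and 0.341 between the agents. These intervals are not adjusted for the number of miRNAs tested. To pass the FDR threshold, a typical miRNA needed a larger change than these.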

Other observations

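The minor arms of the miR-215 and miR-18a hairpins belong to no comparison above and are given as values. The miR-215-3p share of its hairpin was 0.848, 1.27 and 1.52% in the control libraries, 1.61, 1.58 and 1.70% after CoCl2 and 1.45, 1.39 and 1.53% after OD. Control library 1 was the lowest, and the log2 fold changes of miR-215-3p, 0.45 and 0.36, did not pass (edgeR quasi-likelihood test, FDR = 0.086 and 0.24). The miR-18a-3p share was 24.9, 37.7 and 33.6% in control, 37.9, 35.6 and 41.1% after CoCl2 and 35.4, 32.3 and 36.0% after OD, and these groups overlapped.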
